A study of Homo sapiens with 14 samples.

Results

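The IκB family genes encode proteins with ankyrin repeats that bind dimers of NF-κB, and they were examined here as targets of NF-κB itself in L1236 cells. L1236 is an established Hodgkin lymphoma cell line. Binding of the NF-κB subunits p50, p52, RelA (p65) and RelB to chromatin was measured by immunoprecipitation and sequencing (ChIP-seq). Each subunit had 2 ChIP libraries, and 6 libraries of input DNA served as background. The labels name no treatment or genetic change, so the comparison is between each subunit's ChIP and input DNA within 1 cell line. The p52 replicates were made with different antibodies, a mouse monoclonal and a rabbit polyclonal one, whereas the antibody was the same in both replicates for p50 (goat), RelA (rabbit) and RelB (rabbit).

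The genes were NFKBIA (ENSG00000100906), NFKBIB (ENSG00000104825), NFKBIE (ENSG00000146232), NFKBID (ENSG00000167604), NFKBIZ (ENSG00000144802) and BCL3 (ENSG00000069399). A binding region, the union of overlapping peaks of the subunits, was taken as theirs if the authors' annotation gave one of these genes as its closest gene or gave the transcription start site (TSS) of one as its closest TSS. This selected 13 of 14865 regions. BCL3 had 5 regions, NFKBIA 3, NFKBIE 3, NFKBID 1, NFKBIZ 1 and NFKBIB 0, so that 5 of the 6 genes had a region. Each region belongs to its nearest gene or TSS only, so the 0 of NFKBIB means that no region was assigned to it.

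IκBα, IκBβ and IκBε, encoded by NFKBIA, NFKBIB and NFKBIE, are classical inhibitors. They hold NF-κB dimers in the cytoplasm until IκB kinase phosphorylates them and they are degraded, and NFKBIA is a textbook NF-κB target whose renewed synthesis closes a negative feedback loop. IκBNS, IκBζ and Bcl-3, encoded by NFKBID, NFKBIZ and BCL3, act mainly in the nucleus, where they bind dimers of p50 or p52 on DNA and modify transcription. Hodgkin lymphoma cells are known for constitutive NF-κB activity. RelA, RelB and c-Rel carry transactivation domains, which p50 and p52 lack.

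The DNA to which NF-κB binds is a κB site, a short stretch that typically begins with a run of G and ends with a run of C. RefSeq start sites of GRCh38.p14 gave 9 promoter windows for 5 of the 6 genes, each of 300 bases, from 250 before to 50 after the start. NFKBIE was the gene without a window. Windows of a gene are numbered in the direction of transcription. Every one of the 9 windows held GGG and CC separated by any 5 bases on either strand, but so did 58.7% of all 35116 windows. A stricter form, GGGA then any base then TTTCC, is a special case of the first and was held by 196 of all windows, which is 0.558%. Among the 9 windows it was held by 3, of NFKBIA, NFKBIB and NFKBIZ, and each of them held it with the same 10 letters, GGGAATTTCC. These 3 are shown for that match, BCL3 because it is the gene with the most regions, and the third of the 3 NFKBID windows because the gene's binding region lay downstream of its TSS. For NFKBIA, NFKBIZ and BCL3 the 250 bases before the start are printed, and for NFKBIB and NFKBID, whose windows lie downstream of another start of the gene, 30 bases around the match. All run in the direction of transcription, with capitals for GGG and CC separated by any 5 bases, on either strand and with overlapping matches run together. The windows are NFKBIA at chr14:35404750-35404999 (minus strand), the second NFKBIB window at chr19:38899931-38899960 (plus), the first NFKBIZ window at chr3:101827740-101827989 (plus), the third NFKBID window at chr19:35899922-35899951 (minus) and BCL3 at chr19:44748458-44748707 (plus).
NFKBIA: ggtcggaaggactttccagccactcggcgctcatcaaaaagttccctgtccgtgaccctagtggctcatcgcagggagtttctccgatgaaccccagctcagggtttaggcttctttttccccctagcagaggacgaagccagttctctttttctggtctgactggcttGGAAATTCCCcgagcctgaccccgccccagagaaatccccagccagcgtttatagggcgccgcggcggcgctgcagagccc
NFKBIB: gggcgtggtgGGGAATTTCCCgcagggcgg
NFKBIZ: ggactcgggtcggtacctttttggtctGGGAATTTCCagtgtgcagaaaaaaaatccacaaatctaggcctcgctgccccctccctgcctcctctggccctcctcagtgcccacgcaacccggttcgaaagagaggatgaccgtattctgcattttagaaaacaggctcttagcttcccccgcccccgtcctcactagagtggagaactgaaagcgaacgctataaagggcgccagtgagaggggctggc
NFKBID: gggctgagcaGGAATTCCCCttgcgcgggg
BCL3: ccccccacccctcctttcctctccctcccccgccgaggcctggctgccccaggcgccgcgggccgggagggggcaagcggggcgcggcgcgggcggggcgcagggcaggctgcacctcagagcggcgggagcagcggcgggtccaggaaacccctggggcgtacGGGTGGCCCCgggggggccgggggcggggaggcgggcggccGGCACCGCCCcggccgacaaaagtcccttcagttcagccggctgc

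In the NFKBIA window the match lay on the minus strand from base -81 to -72, counted from the RefSeq start. The NFKBIB match began at base -28 and that of NFKBIZ at base -223. In the NFKBIB window GGGAATTTCC lay on the plus strand, and GGGAAATTCC on the minus strand, shifted by 1 base, matched the loose form only. NFKBIB therefore held this sequence before 1 of its RefSeq starts although no binding region was assigned to it. The BCL3 and NFKBID windows held only matches to the loose form. Of the 6 matches in the BCL3 window 3 lay before the start and are in the printed bases. The others lay just after it, between bases 2 and 12. They were GGGGAAGTCC, GGGAAGTCCC and, on the minus strand, GGGACTTCCC. With 1 base fewer between GGG and CC the share of family windows with a match was 6 of 9, against 52.8% of all windows. The form GGGG, any 2 bases, TTCCC was found in 0 of the 9 windows and in 0.552% of all. A match describes letters and not a bound site. The binding regions are in hg18 coordinates from another annotation, and whether its starts coincide with the RefSeq starts was not checked.

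The 13 regions were called for p50 and p52 at close to the shares of all regions, and for RelB and RelA more often. A call means a peak of the merged replicates against input that also passed the authors' comparison between replicates. p50 was called in 10 of the 13 regions, when it was called in 73.8% of all regions, and p52 in 11 of the 13, against 73.3%. RelB was called in 10 of the 13, against 26.8% of all regions. RelA was called in 3 of the 13, against 3.31%. These 3 regions, of NFKBIA, NFKBIE and NFKBID, were called for all 4 subunits, as were 2.35% of all regions. With them, 9 of the 13 regions were called for p50, p52 and RelB, and 19.4% of all regions were. The other 4 were called for p50 only (NFKBIA), for p52 only (NFKBIE and BCL3) or for RelB only (NFKBIZ). Regions near 1 gene are not independent of each other, so these shares describe 5 loci. In the study's quality control, the RelA libraries had the lowest normalized strand cross-correlation, a measure of ChIP enrichment, of all ChIP libraries. Its part in the missing RelA calls was not tested.

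The number of reads behind a value differed between subunits. Summed over all 14865 regions the deposited counts, which are from merged replicates, came to 1654137 reads for p50, 1810792 for p52, 315151 for RelA and 470788 for RelB. The family regions took 0.279% of the p50 reads, 0.296% of p52, 0.192% of RelA and 0.393% of RelB. The median region held 78 p50 reads but 14 RelA reads. These are reads within binding regions and not the sequencing depth of the libraries. The study states that, before peaks were called, its libraries were brought to a common size by random sampling. The part of depth in the missing RelA calls was not tested here. Intervals of reads are exact Poisson 95% intervals and cover counting error only. Since the table gives 1 count per subunit, it holds no spread between replicates for reads or fold enrichment, and no test of a difference was made.

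Fold enrichment, the ratio of merged ChIP to input at the peak's summit, was high in most family regions. Over the 10 called p50 regions the median was 36.7, when it was 16.8 over all 10975 p50 regions, and 9 of the 10 lay above that value. The p52 median was 34.3 against 17.2 over all, with 8 of 11 above. RelB had a median of 15.0 against 9.08, with 8 of 10 above. For RelA the 3 values had a median of 8.25 against 6.23, with 2 of 3 above. For p50 and for p52, 5 family regions each lay in the highest 10% of all calls, whereas 1 did for RelA and 1 for RelB. The plot of fold enrichment by region shows the range within each gene.

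**Figure D1:**
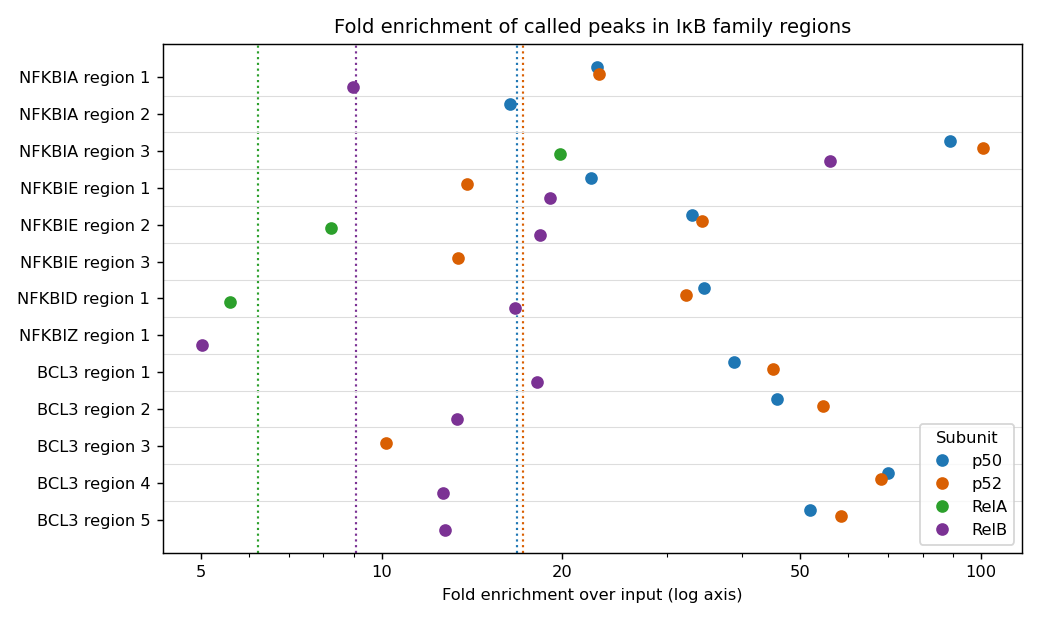
Fold enrichment over input (log axis) of each called peak in the 13 IκB family regions, numbered along each gene in the direction of transcription. Dotted lines mark the median over all regions called for the subunit of that colour. NFKBIA region 3 lay furthest to the right for each of the 4 subunits, and BCL3 has no RelA point.

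NFKBIA, the gene of IκBα, had the strongest region of the family. It spanned the TSS at chr14:34941193-34944892 (hg18, region 3), from 1189 bp upstream to 2510 bp downstream, and with 3700 bp was the 56th widest of all regions, when the median width was 863 bp. It held 1152 p50 reads (interval 1086 to 1220) and 1626 p52 reads (1548 to 1707). RelA reads numbered 190 (164 to 219) and RelB reads 620 (572 to 671). All 4 subunits were therefore counted here at many times their median per region. The p50 fold enrichment of 88.7 ranked 4 of 10975 and the p52 value of 101 ranked 9 of 10893. That of RelB, 56.0, ranked 2 of 3984, and that of RelA, 19.9, ranked 3 of 492. The width bears directly on the reads. Fold enrichment is taken at the summit of the most significant peak, and a wider region can hold more peaks.

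The listed summits of this region formed 2 groups. Those of p50 and p52 lay 182 and 156 bp upstream of the TSS, and those of RelA and RelB 802 and 768 bp downstream. Only the most significant peak of each subunit is listed per region, so a further p50 or RelB peak within it cannot be seen. The study describes peaks of every subunit that overlap in the NFKBIA promoter and first intron. The 2 groups therefore show only which peak was listed, and not separate places of binding. A distance of at least 984 bp between the p50 and RelA summits was found in 20 of the 395 regions called for both, and one of at least 950 bp between p50 and RelB in 78 of 3058. Both shares count regions of every width, and the median region of 863 bp could not hold either distance.

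The other NFKBIA regions lay upstream and were weaker. Region 1, at chr14:34954504-34955621, was 10801 bp from the TSS and was called for p50, p52 and RelB. There p50 had a fold enrichment of 22.9, p52 of 23.1 and RelB of 8.97, and the RelB value lay just below that subunit's median. Region 2, at chr14:34952000-34952548 and 8297 bp upstream, was called for p50 only. It held 76 p50 reads (59.9 to 95.1) and 21 p52 reads (13.0 to 32.1), and these intervals do not overlap. RelA and RelB gave 6 and 3 reads there. The p50 fold enrichment of region 2 was 16.4, close to the median of p50.

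NFKBIE, the gene of IκBε, had a region at its TSS and a stronger one within the gene. Region 1, at chr6:44340587-44341650, held 143 p50 reads (121 to 168), 83 p52 reads (66.1 to 103) and 88 RelB reads (70.6 to 108). Its RelB fold enrichment of 19.1 ranked 418 of 3984, whereas its p52 value of 13.9 ranked 7175 of 10893. Among the family regions called for p50, p52 and RelB it was thus the only one whose RelB fold enrichment exceeded that of p52. Region 2, at chr6:44338369-44340398, began 1105 bp downstream of the TSS and was called for all 4 subunits. It held 455 p50 reads (414 to 499), 578 p52 reads (532 to 627), 83 RelA reads (66.1 to 103) and 255 RelB reads (225 to 288). The fold enrichment was 32.9 for p50, 34.3 for p52, 8.25 for RelA and 18.4 for RelB, above the median of each subunit.

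All 4 summits of NFKBIE region 2 lay between 2194 and 2200 bp downstream of the TSS. The 3 summits of region 1 lay between 102 and 109 bp downstream. In contrast to NFKBIA region 3, the listed summits within NFKBIE region 1 and within region 2 thus lay close together. Region 3, at chr6:44334117-44334697, overlapped NFKBIE but its closest TSS was that of another gene (ENSG00000157593), 848 bp away. It was called for p52 only, with 65 p52 reads (50.2 to 82.8) and 14 p50 reads (7.65 to 23.5). Its p52 fold enrichment of 13.4 was below the median of p52.

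NFKBID, which encodes IκBNS, had 1 region, at chr19:41082262-41083663, that was called for all 4 subunits. It began 1362 bp downstream of the TSS and overlapped the gene. It held 318 p50 reads (284 to 355), 286 p52 reads (254 to 321), 42 RelA reads (30.3 to 56.8) and 141 RelB reads (119 to 166). The fold enrichment of p50 was 34.6, that of p52 32.3 and that of RelB 16.7, all above the medians, whereas that of RelA, 5.59, was below the median and ranked 303 of 492. The 4 summits lay between 2345 and 2431 bp downstream of the TSS. RefSeq lists 3 starts for NFKBID, the second 1763 and the third 2560 bases downstream of the first, and the bases printed above lie before the third, from base -208 to -179. The distances were counted in different annotations and are only set side by side.

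NFKBIZ, which encodes IκBζ, had the weakest region of the family, at chr3:103051804-103052251 and 22277 bp downstream of the TSS. It was called for RelB only, with 14 RelB reads (7.65 to 23.5), 12 p50 reads (6.20 to 21.0), 18 p52 reads (10.7 to 28.4) and 5 RelA reads (1.62 to 11.7). These intervals overlap each other. The RelB fold enrichment of 5.02 ranked 3595 of 3984, and the pileup of 11 overlapping fragments ranked 3876. The call for RelB and the lack of a p50 call there thus rest on few reads. RefSeq lists a second NFKBIZ start 21524 bases downstream of the first.

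BCL3, whose protein binds dimers of p50 or p52, had 5 regions. Of the 8450 genes with an assigned region 696 (8.24%) had 5 or more, and the median gene had 1. Its regions were spread from 24063 bp upstream to 6247 bp downstream of the TSS, and 4 of them were called for p50, p52 and RelB. RelA was called in none of the 5. The strongest, region 4 at chr19:49941696-49944677, spanned the TSS, and with 2982 bp it was the 182nd widest of all regions. It held 820 p50 reads (765 to 878), 785 p52 reads (731 to 842), 64 RelA reads (49.3 to 81.7) and 298 RelB reads (265 to 334). Its fold enrichment of 70.0 for p50 ranked 25 of 10975 and that of 68.0 for p52 ranked 136 of 10893, while that of RelB, 12.7, ranked 1125 of 3984. By fold enrichment the BCL3 promoter was thus nearer the top for p50 and p52 than for RelB. By reads per kb, 97.2% of the regions called for p50 lay at or below it, 91.9% of those for p52 and 91.5% of those for RelB, so that p52 and RelB did not stand apart on this measure.

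In the BCL3 regions away from the TSS that were called for p50, p52 and RelB, fold enrichment was highest for p52 and lowest for RelB. The medians over all calls had the same order, with 17.2 for p52, 16.8 for p50 and 9.08 for RelB. NFKBIA regions 1 and 3 and NFKBIE region 2 had it too, whereas NFKBIE region 1, NFKBID and BCL3 region 4 did not. The order is thus no trait of BCL3. In region 5, within the gene at chr19:49947871-49949891, the p50 value was 51.8, that of p52 58.5 and that of RelB 12.8. In region 2, 8752 bp upstream at chr19:49931557-49934892 and 3336 bp wide, the values were 45.7, 54.5 and 13.4. In region 1, 22377 bp upstream at chr19:49919581-49921267, they were 38.7, 44.9 and 18.2. Region 1 was the farthest and had the highest RelB value of the 4, and its closest gene was another (ENSG00000213892), so that it is a BCL3 region by its closest TSS only. Region 3, at chr19:49936678-49937457, was called for p52 only, with 70 p52 reads (54.6 to 88.4) and 46 p50 reads (33.7 to 61.4), and these intervals overlap. Its p52 fold enrichment of 10.2 ranked 9663 of 10893.

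In BCL3 region 4 the p50 and RelB summits lay 1014 and 1011 bp upstream of the TSS and the p52 summit 149 bp downstream. This distance of 1163 bp between p50 and p52 was reached or exceeded in 80 of the 7643 regions called for both (1.05%). In the other BCL3 regions called for p50 and p52 the summits were 1 to 81 bp apart. Over all regions the median distance was 11 bp, and 95.3% of the pairs lay within 250 bp. Among the 9 family regions called for p50 and p52 the median was 14 bp and 8 lay within 250 bp, all but BCL3 region 4. Of the 9 called for p50 and RelB 8 lay within 250 bp, all but NFKBIA region 3. Among listed summits the widest separations thus stood at the 2 TSS regions of NFKBIA and BCL3. The p50 summit was next to that of p52 in the first and of RelB in the second. These regions were 3700 and 2982 bp wide, when the median region was 863 bp and could not hold such a distance. No comparison with regions of like width was made.

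**Figure D2:**
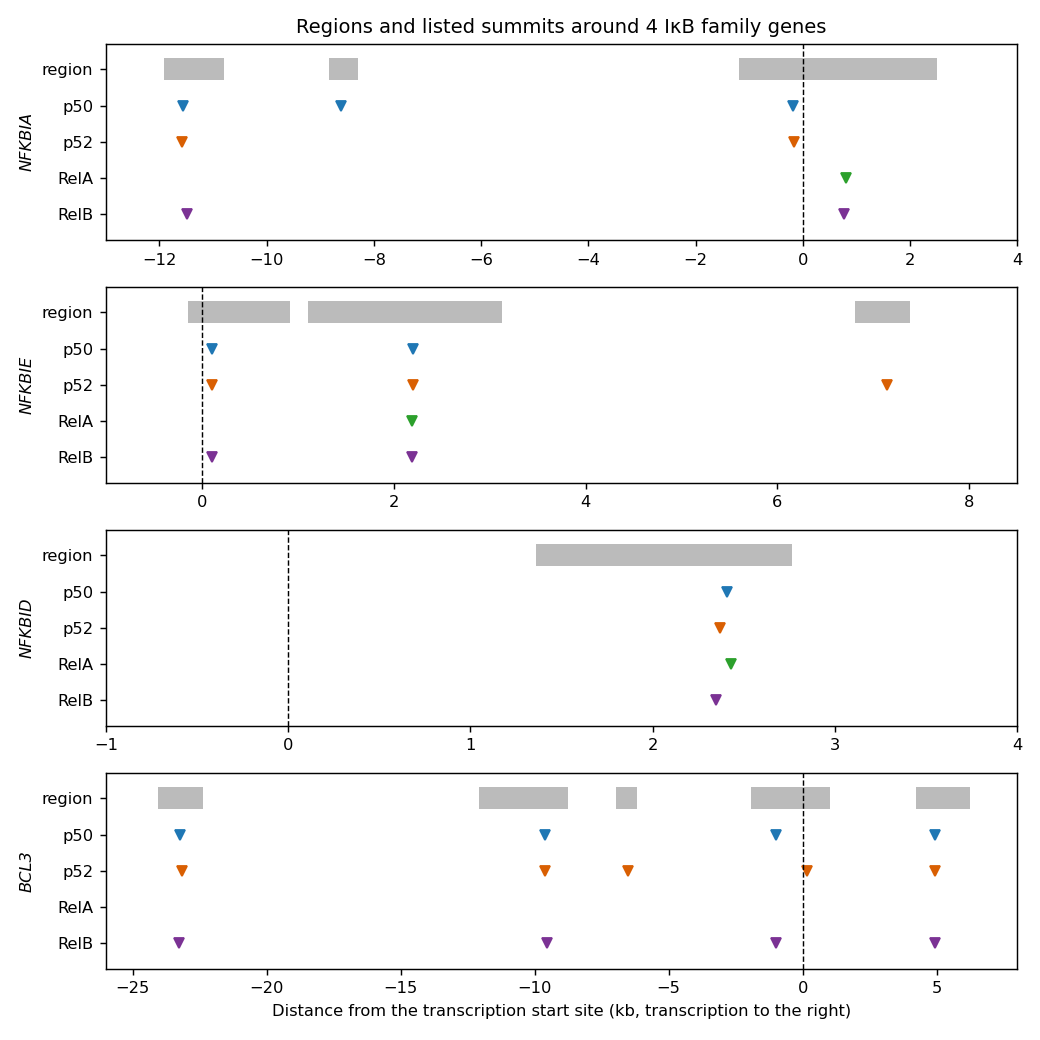
Regions (grey bars) and listed summits (triangles) of p50, p52, RelA and RelB around the TSS (dashed line) of NFKBIA, NFKBIE, NFKBID and BCL3, in kb with transcription to the right. The p50 and p52 summits are 26 bp apart at the NFKBIA TSS and 1163 bp apart at the BCL3 TSS, and the scale differs between genes.

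Proximity to the TSS was common to most regions. Of the 13 regions 10 lay within 10 kb of their closest TSS, when 37.3% of all regions did, and 3 overlapped it, those of NFKBIA, NFKBIE and BCL3. The median width was 1402 bp against 863 bp over all, and 3 of the 13 were among the widest 5%.

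Reads per kb set RelA in the regions without a call beside the regions with one. A call does not rest on this density, which is an average over the whole region. In the 5 BCL3 regions RelA density was 19.2 to 21.5 reads per kb, above the median of 15.6 over all regions and below that of 38.4 over the regions called for RelA. Between 2.24% and 4.47% of the RelA regions had so low a density. NFKBIE region 1, which was not called for RelA, had 28.2 reads per kb (19.0 to 40.3), and NFKBID, which was, had 30.0 (21.6 to 40.5). These intervals overlap almost entirely, so that a call for RelA in NFKBID and none in NFKBIE region 1 does not show a difference in RelA reads. NFKBIA region 3 and NFKBIE region 2 had 51.4 (44.3 to 59.2) and 40.9 (32.6 to 50.7), and both intervals lay above those of the 5 BCL3 regions, whose highest upper bound was 31.7.

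**Figure D3:**
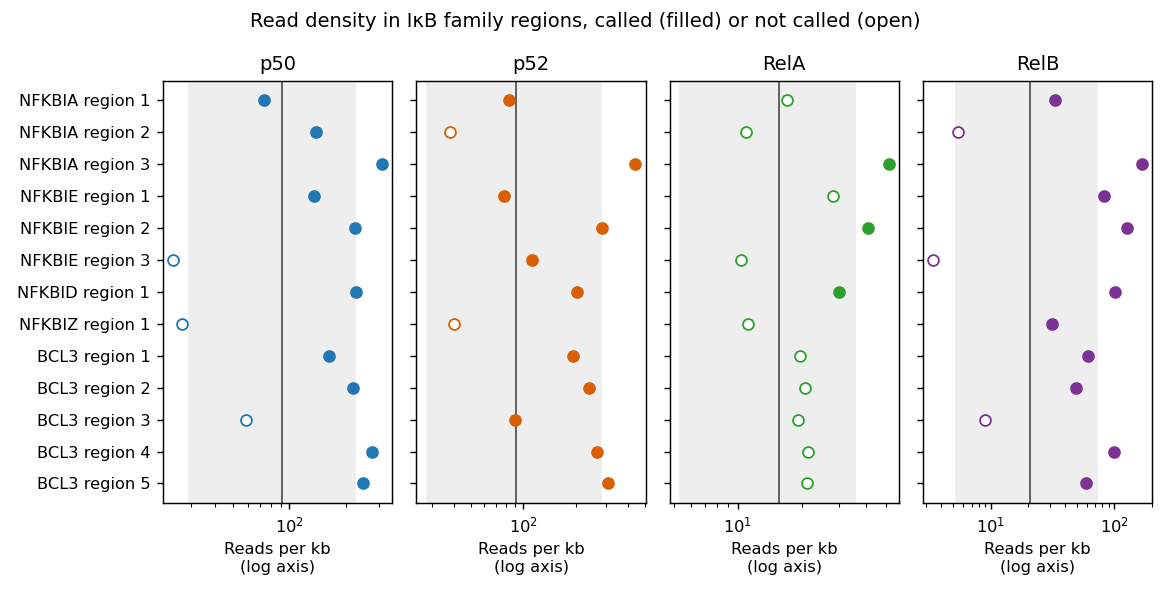
Reads per kb (log axis) of each subunit in the 13 regions, with filled points for called and open points for not called subunits. The grey band spans the 5th to 95th percentile and the line the median of all 14865 regions, and the open RelA points of BCL3 lie between 19.2 and 21.5.

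RelB and RelA reads were set against the p50 and p52 reads of the same region. Among regions called for p50, p52 and RelB, both ratios were lower in BCL3 than in the 3 other genes. Over all regions the median was 11.1 RelB and 8.11 RelA reads per 100 p50 and p52 reads. In the 5 regions of NFKBIA, NFKBIE and NFKBID called for p50, p52 and RelB, RelB reads numbered 21.1 to 38.9 per 100, at the 86.8th to 95.6th percentile of all regions. In the 4 such regions of BCL3 they numbered 10.7 to 18.6, at the 47.8th to 82.0th percentile. RelA reads numbered 6.84 to 13.3 in the first 5 regions, at the 38.7th to 80.5th percentile, and 3.85 to 5.50 in BCL3, at the 11.7th to 26.3rd. The regions called for RelA, with 6.84, 6.95 and 8.03, lay below the median of all regions. The ratios of the groups did not overlap for either subunit, but no intervals were made for them. The BCL3 region with the ratio of 5.50 held 33 RelA reads (22.7 to 46.3), and NFKBID 42 (30.3 to 56.8). These intervals of reads overlap, so the RelA groups are not separated beyond counting error. BCL3 region 3, called for p52 only, was in neither group. It had 12.9 RelA reads per 100, within the range of the first 5 regions, and 6.03 RelB reads. Antibodies differ in efficiency, so such a ratio does not compare subunits. It also falls as p50 and p52 reads rise. RelA density in the 4 grouped BCL3 regions, 19.6 to 21.5 reads per kb, was above the median of 15.6 over all regions. A lower RelA ratio in BCL3 thus does not show fewer RelA reads there. The 2 groups were formed after the calls were seen, and regions of the same gene are not independent, so the difference was not tested.

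The balance between p50 and p52 was near that of other regions in most of the 13, with departures in the small ones. p50 reads made up a median of 48.2% of the p50 and p52 reads of a region, with 24.4% to 75.5% as the 5th to 95th percentile. The family median was 45.8%. In NFKBIA region 2, called for p50 only, the share was 78.4% (exact Clopper-Pearson 95% interval 68.8% to 86.1%), at the 97.3rd percentile. In NFKBIE region 3, called for p52 only, it was 17.7% (10.0% to 27.9%), at the 1.07th percentile. These calls for 1 subunit thus went with an uneven share of reads. Calls and shares come from the same libraries, so the share is no separate support for the calls. In BCL3 region 3, also called for p52 only, the share of 39.7% (30.7% to 49.2%) lay at the 31.6th percentile, so the read balance there was ordinary.

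Within NFKBIE the share ran from 17.7% in region 3 to 63.3% in region 1. Region 1 at the TSS had 63.3% (56.6% to 69.6%) and region 2 within the gene 44.0% (41.0% to 47.1%), and the intervals do not overlap. In BCL3 the regions called for both ran from 44.6% (41.7% to 47.6%) in region 5 to 51.1% (48.6% to 53.6%) in region 4. At the NFKBIA TSS the share was 41.5% (39.6% to 43.3%). In NFKBID it was 52.6% (48.6% to 56.7%). An interval above 50% was found in 2 regions and one below in 6, but 50% has no meaning of its own when the antibodies differ.

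**Figure D4:**
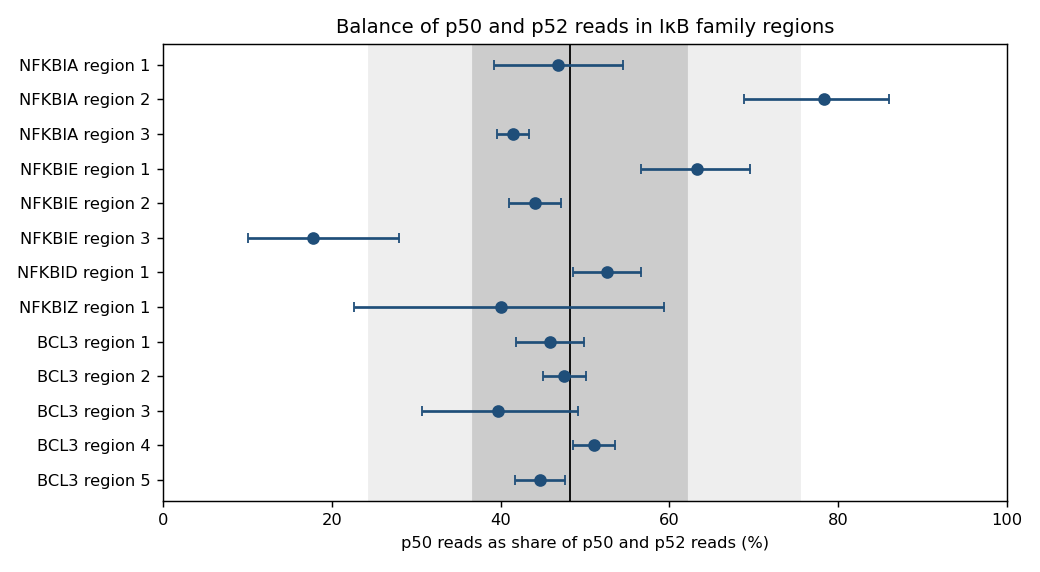
p50 reads as a share of p50 and p52 reads in each of the 13 regions, with exact 95% intervals. The line marks the median of all regions, 48.2%, and the bands their middle 50% (36.7% to 62.1%) and the 5th to 95th percentile. NFKBIA region 2 and NFKBIE region 3 lie outside the wider band on opposite sides.

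The signal values, a score for each replicate, are the only replicate values in the table, and which of the pair belongs to which replicate, or to which p52 antibody, is not stated. At the NFKBIA TSS they were 3625 and 1169 for p50, 1860 and 6531 for p52, 399 and 200 for RelA, and 3055 and 3990 for RelB. Both values of each subunit there lay at or above the 92.9th percentile of that subunit's regions. At the BCL3 TSS they were 2454 and 1258 for p50, 833 and 3227 for p52, and 247 and 704 for RelB. For p52 the second value was the higher in 10 of 11 family regions, as in 90.9% of all p52 regions, and the exception was NFKBIE region 3, with 263 and 193. For RelB it was higher in 10 of 10, when it was higher in 72.8% of all, and for RelA in 0 of 3, against 33.1%.

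For p50 the pair differed in both directions. The second value was the higher in 5 of 10 regions, when it was in 38.1% of all, and the log2 ratio of second to first ran from -1.96 in NFKBIE region 2 (1507 and 388) to 0.90 in BCL3 region 1 (683 and 1276). Ranks within the p50 regions therefore depended on the replicate: NFKBIE region 2 lay at the 92.8th percentile by the first value and at the 58.0th by the second. RelB in NFKBID, with 185 and 1285, lay at the 55.1st and the 92.1st. By contrast, RelB at the NFKBIA TSS lay at the 99.8th and the 99.7th. The order of weaker regions is thus less certain than the place of the NFKBIA TSS region.

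**Figure D5:**
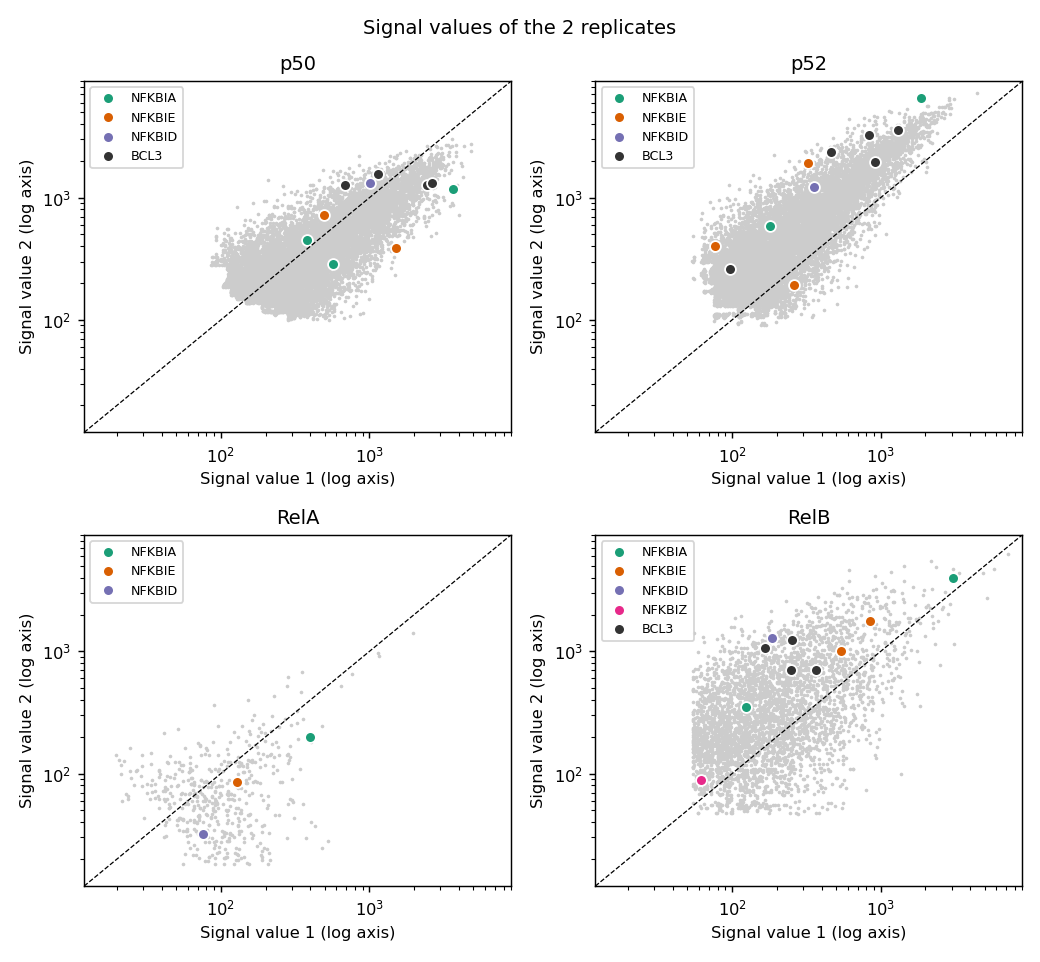
First against second signal value (log axes) of every called region (grey) and of the IκB family regions (coloured by gene) for each subunit, with the dashed line of equality. For p52, 10 of 11 family points lie above the line, and for p50, 5 of 10.

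The irreproducible discovery rate (IDR), which compares the ranks of peaks between replicates, was at most 0.009998 among all p50 calls of the table. No IDR in the table reaches the higher threshold that the study names for its calls, so a deposited call met a stricter limit than the named one. Family calls for p50 had IDR values of at most 1.02e-05, whereas those of RelB reached 0.0058, in NFKBIZ, and those of RelA 0.0043, in NFKBID. At an IDR below 0.001 the number of called regions stayed at 10 for p50 and fell to 9 for p52, 2 for RelA and 7 for RelB. RelA was then called at NFKBIA and NFKBIE only. The p52 calls lost were those of NFKBIE region 1 and BCL3 region 3, and the RelB calls lost were those of NFKBIA region 1, NFKBID and NFKBIZ.

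Other genes of the NF-κB pathway were set beside the family from a list of 17 that covers the subunits, kinases, ubiquitin ligases and further feedback inhibitors. Their identifiers were matched through tables of genes that the study selected, which gave 12 of the 17, and all 12 had a region, so that this share is no result about the list. They had a median of 3 regions per gene, when the median over all genes was 1, and a gene with more regions has more places for a call. IKBKG, MAP3K14, CYLD, TRAF2 and TRAF3 were not matched and have no value here. Of the 12 genes 9 had a region called for RelA, when 5.46% of all genes with a region did, and 10 had one called for RelB, against 38.2%. The 12 were matched through genes that the study selected, so these shares are no result about the list either. How far the selection raised them was not tested. In the IκB family 3 of the 5 genes with a region had one called for RelA, and 5 of 5 had one for RelB.

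NFKB2, the gene of the p52 precursor p100, itself a protein with IκB-like ankyrin repeats, had 1 region with a fold enrichment of 91.0 for p50, 99.2 for p52, 12.4 for RelA and 55.3 for RelB. These were near the values of the NFKBIA TSS region for p50, p52 and RelB. NFKB1, the gene of the p50 precursor p105, had 7 regions and at most 36.1 for p50 and 24.9 for p52. TNFAIP3, the gene of the feedback inhibitor A20, had 18 regions, the most on the list, with at most 53.4 for p50 and 68.6 for p52. For p50 the highest values of NFKBIA and BCL3 exceeded those of NFKB1 and TNFAIP3. For p52 that of NFKBIA did, and the 68.0 of BCL3 was close to that of TNFAIP3. For RelA and RelB, TNFAIP3 had at most 18.9 and 41.0. BIRC3 had at most 55.4 for p50, 81.9 for p52, 15.5 for RelA and 39.0 for RelB. These RelA and RelB values of both genes, and the p52 value of BIRC3, exceeded those of every family region but NFKBIA region 3. CHUK, the gene of IKKα, and BTRC, which encodes a ubiquitin ligase subunit that recognises phosphorylated IκB, had 1 region each and no call for RelA or RelB.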

How the data were processed

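Union regions of NF-κB ChIP-seq in L1236 cells were analysed from the table the authors deposited (p65 columns are RelA). The submitters' processing notes name CASAVA, Bowtie, SAMtools and hg18. The deposited read counts are whole reads per region from merged replicates. Fold enrichment, as deposited, is a ratio of ChIP to input at the MACS summit, and the deposited pileup is the coverage signal there. Between replicates the authors calculated the IDR, which is a fraction, and with MACS the FDR, a q-value, and they entered a score per replicate (signal value) into the IDR analysis. Distances to gene and TSS are theirs, from Ensembl, and TSS positions were derived from them. Columns not assigned to a group numbered 0.

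Regions of the 6 genes were compared with all regions by counts, medians and percentiles (share at or below). The genes named were the 6, all their regions and the 17 pathway genes. Members and lists were chosen with earlier results of these data known. Alternatives were stricter IDR, FDR and fold enrichment, assignment by gene or TSS only, a 10 kb window, pileup, reads per kb, single signal values, scaled reads, summits within 250 bp and other motif forms. Percentiles, intervals and motif search were tested on simulated data. The study calls its replicates biological, and they share a cell line. Read files and coverage tracks were not used here. Calculations were made with pandas 2.3.3, numpy 2.4.6 and scipy 1.17.1 in Python 3.11.15, and figures with matplotlib 3.10.9.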

Additional observations from a re-analysis of the deposited data

How the results depend on the processing

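No paired analysis was possible because no result comes from a test, and the numbered signal values are not tied to libraries in the sources used here. Of 50 alternative values 43 stayed within the replicate spread, the counting interval or 1.5 times the count. For percentiles the spread came from the gap between the 2 signal values themselves, so a subunit with unlike replicates had a wide limit. A fall of RelB calls from 10 to 7 also lay within the limit. The 43 thus partly follows from the limits and is no measure of stability. Under the settings tried for calls and assignment, p50 was called in 8 to 10 family regions and p52 in 9 to 11. RelA was called in 2 to 3 and RelB in 7 to 10. The median percentile of RelA fold enrichment, 82.3 over 3 regions, was 68.7 by pileup, 58.1 by reads per kb, 75 among peaks of at least 5-fold, and 65.4 to 66.1 by a single signal value. By a single signal value the median percentile was 85.9 to 93.8 for p50 (90.2 by fold enrichment), 70.2 to 92.4 for p52 (84.5) and 67.1 to 88.6 for RelB (79.7). The median p50 share of 45.8% was 50.9% by pileup in the 9 regions called for both. The stricter motif left 3 of 9 windows, since it admits fewer sequences. Other causes were not tested. Among the 9 regions called for 2 or more subunits, all summits lay within 250 bp in 7. Family regions held 5 to 190 RelA reads and 2 to 620 RelB reads, which limits the precision of the smallest.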
